A study of Arabidopsis thaliana with 6 samples.

Results

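External bins are the exon segments that lie at the start or the end of at least 1 annotated transcript of a gene, and they were followed here in wild-type and prmt5 seedlings of Arabidopsis thaliana. The members were the rows of the deposited exon table whose event was "external", 53277 of 158089 exon bins, in 22491 genes. Where the junction table gave the gene a strand, a bin was assigned to the 5′ or the 3′ end by the side of the middle of the gene on which its own midpoint lies, in the direction of transcription: 23538 bins of 19018 genes were 5′ external and 22553 bins of 19020 genes were 3′ external. A further 7186 bins lay in genes with no strand in that table and stayed without an end. The choice of external bins used annotation only and no measured value. The strand came from the rows of the junction table, unannotated junctions included, so the split by end may depend on which junctions had reads. The median length was 202 bases at the 5′ end and 353 bases at the 3′ end. Of the 53277 bins, 37459 (70.3%) passed the count minimum for testing (18655 at the 5′ end, 18383 at the 3′ end and 421 without strand), and 6446 had no read in any library.

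A transcript begins where RNA polymerase II initiates and ends where the nascent RNA is cut and polyadenylated, and many plant genes use more than 1 site for either step. An alternative start or end often lies inside an intron of the longer transcripts, so that reads over such a segment can come from a transcript that begins or stops there or from a longer transcript that kept the intron. PRMT5 is an arginine methyltransferase that modifies Sm proteins, the ring of subunits at the core of spliceosomal particles, and Arabidopsis prmt5 mutants are known for retained introns and altered use of 5′ splice sites.

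The series held 6 RNA-seq libraries, 3 from Col wild type (WT) and 3 from the prmt5 mutant. All were made from polyadenylated RNA of whole seedlings aged 9 days that grew at 22 °C in constant white light after 4 days of cold, dark stratification at 4 °C. The labels do not give the prmt5 allele, and nothing in them says that the 3 samples of a genotype came from separate cultures, so the p-values below measure only the spread between these samples, which may be technical. Reads summed over genes came to 69699931, 38564256 and 75461631 in WT replicates 1, 2 and 3 and to 51446743, 41465842 and 67300273 in prmt5 replicates 1, 2 and 3; all values below follow this order. PRMT5 itself had 30.2, 28.7 and 31.1 CPM (counts scaled to the library's total, as edgeR gives them) in WT and 34.7, 28.9 and 33.1 in prmt5. Its annotated junction at chr4:15132629-15132725 (TAIR10, the numbers are the flanking exon bases), however, had 104, 83 and 116 reads in WT against 5, 3 and 17 in prmt5. An unannotated junction to the same acceptor, chr4:15132629-15132732, had 0, 0 and 0 reads in WT against 11, 10 and 27 in prmt5. The 3 leaf marker genes checked summed to 28330 to 34239 CPM in WT and 24361 to 26639 in prmt5, 3 root marker genes to 2084 to 2432 and 1832 to 2327, and 3 pollen marker genes to at most 0.149 in any library. In whole seedlings, fewer cells of a type and less RNA per cell cannot be told apart, and the part of the lower leaf marker level in the results was not tested.

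The sequences that recur in the results are the 5′ splice sites of the introns that are spliced out across a called external bin, since joining at these sites removes the bin from the mature transcript. Each is given 5′ to 3′ on the transcribed strand, with the last 10 exon bases and the first 6 intron bases in capitals followed by 4 more; the sequences were read from the RefSeq copy of the genome (TAIR10.1).
FP3: aatgggagagGTTCAAgaaa
AT4G04340: catctctaggGTTTCTctct
AT3G11230: ccagtcttgcGTAATTaatg
TGA9: tcttcctactGTACCCtttc
PIF7: agtaacacatGTATCTctct
FUM2: cttccgataaGTTCGGaatc
AT4G30310: ctgtattgagGTTATTatgt
HOL1: ctgtggtggaGTCAGTcttc
The same is shown for the 3′ external bins that rose and were spliced over.
AT3G09100: agttgtagagGTTGGAattg
AT5G53420: cgacatacagGTTTGGcaaa
SCD1: agactgtctgGTCGGTataa
IAA7: tcccatgggaGTGAGTcaaa
AT5G60400: tgtccaaagaGTAATAtttc
A donor score was computed for each site over its last 3 exon and first 6 intron bases, as the summed log2 odds of the base frequencies in 110931 annotated donors against those of the genome; 98.5% of these annotated introns had GT and AG at their ends. The median score of annotated donors was 7.04. The donor of AT3G11230 scored 0.977, at percentile 0.983 of annotated donors, and that of FP3 scored 4.74, at percentile 15.1. That of AT4G30310 scored 6.99, at percentile 48.7, and that of AT5G53420 scored 7.65, at percentile 60.8.

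Usage of a bin was its count as a percentage of the count of its gene, and each bin was tested against its gene with edgeR's quasi-likelihood test, with Benjamini-Hochberg adjustment over all 127078 exon bins that passed the minimum. At an adjusted p under 0.05, 157 of all exon bins changed (0.124%): 97 rose (0.0763%) and 60 fell (0.0472%). Among the external bins 52 of 37459 changed (0.139%), in 45 genes; 33 rose and 19 fell in prmt5. This share was close to the 0.117% of the 89619 tested exon bins that were not external (105 bins). At an unadjusted p under 0.05 there were 1543 external bins (4.12%), against 3.61% of all exon bins. In all 52 called bins the WT and prmt5 libraries did not overlap, as was also the case for 8.64% of tested external bins and 8.9% of all tested exon bins.

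At the 5′ end 30 of 18655 tested bins changed (0.161%), of which 25 rose and 5 fell. At the 3′ end 22 of 18383 changed (0.120%), of which 8 rose and 14 fell. Most of the gains were in inner bins, not in the outermost bin of a gene. At the 5′ end 19 of 3885 inner bins rose (0.489%) against 6 of 14770 outermost ones (0.0406%). At the 3′ end 6 of 3148 inner bins rose (0.191%) against 2 of 15235 outermost ones (0.0131%). In either direction 21 inner (0.541%) and 9 outermost (0.0609%) 5′ bins changed, and 10 inner (0.318%) and 12 outermost (0.0788%) 3′ bins. The counts hang on single libraries: without WT replicate 2 they were 42 and 39 at the 5′ and 3′ ends, without WT replicate 1, WT replicate 3 or any 1 of the prmt5 replicates they were 8 to 12 and 3 to 12. The 421 tested bins without strand gave 0 calls by edgeR, with 18 at an unadjusted p under 0.05, and 2 calls by DESeq2.

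A split of the bins by whether an annotated junction of the same gene passes over them, chosen after the values had been seen, held most of the gains. Of 640 tested 5′ bins that were spliced over, 19 changed (2.97%) and 18 of these rose; of the 18015 other 5′ bins, 11 changed (0.0611%). Of 321 tested 3′ bins that were spliced over, 5 changed (1.56%) and all 5 rose, against 17 of the other 18062 (0.0941%). Without 1 library at a time the calls in spliced-over 5′ bins numbered 7 to 23, all raised but 1, and those in spliced-over 3′ bins 1 to 12, all raised. The middle and upper part of the distribution lay higher as well, while the lower part did not. The median log2 difference in usage (prmt5 minus WT) was 0.19 for spliced-over 5′ bins and 0.17 for spliced-over 3′ bins, with 95th percentiles of 1.57 and 1.24, and was −0.0027 and −0.032 for the others. The 5th percentiles were lower for spliced-over bins (−0.51 and −0.44) than for the others (−0.39 and −0.31). Without WT replicate 2 these 4 medians were 0.17, 0.22, −0.064 and 0.020, and without prmt5 replicate 1 they were 0.21, 0.13, 0.038 and −0.073.

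**Figure D1:**
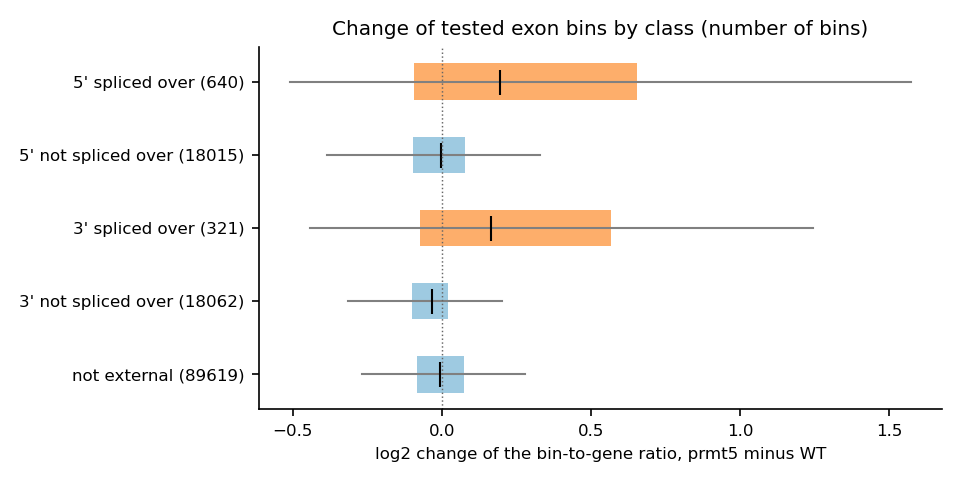
Log2 difference in usage (prmt5 minus WT, fitted by edgeR) of tested exon bins by class, drawn from the 5th, 25th, 50th, 75th and 95th percentiles. The 640 spliced-over 5′ bins (median 0.19) and the 321 spliced-over 3′ bins (median 0.17) have higher medians and wider spreads than the other classes, whose medians lie between −0.032 and −0.0027.

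The medians of single libraries show the same. On a log2 scale relative to each bin's mean over WT, spliced-over 5′ bins had medians of 0.082, −0.054 and −0.0092 in WT and 0.22, 0.31 and 0.23 in prmt5, so that the groups did not overlap. Spliced-over 3′ bins had medians of −0.10, 0.16 and −0.022 in WT and 0.29, 0.19 and 0.036 in prmt5; prmt5 replicate 3 lay below WT replicate 2. The outermost bins of both ends overlapped between the genotypes.

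**Figure D2:**
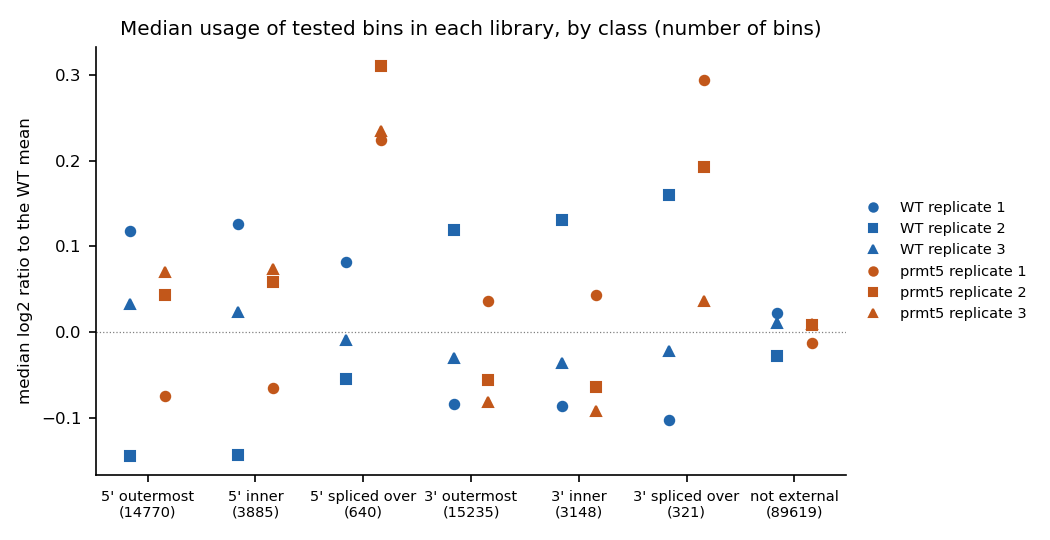
Median log2 usage of each class of exon bins in every library, relative to the bin's mean over the WT libraries; each point is 1 library. Spliced-over 5′ bins lie between 0.22 and 0.31 in prmt5 and between −0.054 and 0.082 in WT, while WT replicate 2 and prmt5 replicate 1 have low medians at outermost 5′ bins (−0.14 and −0.075) and high medians at outermost 3′ bins (0.12 and 0.037).

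Whole-library balance between the ends did not separate the genotypes. Over 13922 genes with both ends tested, the outermost 5′ bins took 22.9%, 19.6% and 21.7% of gene counts in WT against 19.6%, 20.9% and 21.4% in prmt5 (21.4 ± 1.68 and 20.6 ± 0.964, SD, n = 3 each; exact permutation test, 2-sided p = 0.4). The outermost 3′ bins took 31.9%, 36.6% and 32.8% in WT and 34.0%, 31.4% and 31.0% in prmt5 (33.8 ± 2.49 and 32.1 ± 1.58; exact permutation p = 0.5). The smallest p that 3 against 3 libraries can give is 0.1. WT replicate 2 and prmt5 replicate 1 had the lowest ratios of 5′ to 3′ counts, 0.535 and 0.576, against 0.661 to 0.718 in the others. A library in each genotype was thus richer in 3′ ends.

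The gains at the 5′ end were in 25 bins of 25 genes, 24 to 685 bases long (median 89), with log2 differences of 0.65 to 3.51. By the RefSeq annotation 22 of them hold 5′ UTR sequence, 10 hold coding sequence and 1 holds 3′ UTR sequence. Gene levels were compared as CPM in the same way: of 22509 genes tested by edgeR 7488 changed (33.3%), 4021 up (17.9%) and 3467 down (15.4%). Of the 25 genes, 13 also rose as a whole, 3 fell and 9 did not pass the test. The junction that skips the bin took a lower share of gene counts in all prmt5 libraries than in any WT library for 12 of the 18 spliced-over bins, and a higher share in all prmt5 libraries for 0. The same separation downwards was seen at the junctions over 12.3% of all 640 tested spliced-over 5′ bins, and at 8.32% of 98779 annotated junctions that averaged 5 or more counts in the tested genes. For 15 of the 18 the skipping donor scored below the median of annotated donors. The same share was not taken over all 640 tested spliced-over 5′ bins, so a link between donor score and gain was not tested.

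The call with the smallest adjusted p at the 5′ end was in FP3 (AT5G63530), which encodes a farnesylated metal-binding protein. Its bin of 46 bases at chr5:25433341-25433386 (plus strand; 5′ UTR within an intron of other transcripts) had 25, 19 and 21 reads in WT against 312, 274 and 274 in prmt5. Usage was 0.474 ± 0.126% of gene counts in WT against 4.05 ± 0.590% in prmt5 (SD, n = 3 each), a log2 difference of 3.15 (SE 0.20; edgeR adjusted p = 0.00030). The skipping junction, with the GTTCAA donor shown above, had 139, 81 and 141 reads in WT against 98, 112 and 149 in prmt5, while the whole gene rose from 81.3 to 133 CPM, so that the junction's share went from 2.51 ± 0.246% to 1.68 ± 0.367%. The bin leaves 53 bases of that intron outside it. Intron reads that did not count in the bin numbered 0, 2 and 0 in WT against 10, 9 and 5 in prmt5, or 0.0206% and 0.115% of the gene (means). A read that reaches over the bin's edge may count in the bin, so whether the added reads of FP3 stayed within the annotated first exon was not tested.

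TGA9 (AT1G08320), a bZIP transcription factor, combined the largest rise of a whole gene among the genes with called bins with a gain at an inner 5′ bin. Its bin of 51 bases at chr1:2625813-2625863 (minus strand) had 7, 3 and 7 reads in WT against 278, 195 and 356 in prmt5. Usage went from 0.776 ± 0.175% to 5.63 ± 0.0936% (log2 difference 2.81, SE 0.21; edgeR adjusted p = 0.00056), and the gene from 12.1 to 89.0 CPM (log2 difference 2.88). Here the skipping junction fell in count as well, from 29, 27 and 35 to 4, 9 and 20. The bin leaves 326 intron bases outside it, and intron reads that did not count in the bin went from 6, 1 and 15 in WT to 645, 504 and 912 in prmt5. Their share of the gene went from 0.962 ± 0.930% to 14.0 ± 0.664%, and the log2 difference of the whole intron was 3.42. Whether the reads of the bin came from a new start or from the kept intron was not tested.

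AT3G11230 encodes a Yippee family zinc-binding protein. Its bin of 84 bases at chr3:3516678-3516761 (plus strand), which covers all but 2 bases of an intron, had 50, 26 and 47 reads in WT against 268, 231 and 287 in prmt5, or 4.62 ± 0.714% and 20.5 ± 2.44% of the gene (log2 difference 2.13, SE 0.15; edgeR adjusted p = 0.00054). The junction over it, whose GTAATT donor has the lowest score of those shown, had 55, 39 and 76 reads in WT against 15, 8 and 8 in prmt5. Groups did not overlap for either value, and they moved in opposite directions.

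PIF7 (AT5G61270) is a bHLH factor that binds phytochrome and acts in shade avoidance. Its inner first exon at chr5:24640294-24640401 (minus strand, 108 bases) had 47, 23 and 43 reads in WT against 256, 182 and 278 in prmt5, or 2.94 ± 0.236% and 10.5 ± 0.736% of the gene (log2 difference 1.83, SE 0.13; edgeR adjusted p = 0.00056). The skipping junction had 63, 18 and 59 reads in WT against 23, 19 and 37 in prmt5, a fall in share from 3.43 ± 1.03% to 1.14 ± 0.152%. The gene rose from 21.4 to 41.8 CPM. The bin leaves 36 intron bases outside it. Intron reads that did not count in the bin went from 4, 5 and 4 in WT to 21, 22 and 32 in prmt5, or 0.387 ± 0.216% and 1.11 ± 0.212% of the gene. Whether the added reads of PIF7 came from a new start or from the kept intron was not tested.

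In AT4G04340, described by RefSeq as a hyperosmolality-gated calcium channel of the plasma membrane, the gain covered the whole first intron. The bin of 210 bases at chr4:2122908-2123117 (plus strand) had 53, 16 and 40 reads in WT against 212, 230 and 275 in prmt5 (0.449 ± 0.0643% and 2.99 ± 0.509%; log2 difference 2.68, SE 0.18; edgeR adjusted p = 0.00033). The 76 intron bases on its 3′ side, annotated as a retained intron, had 8, 1 and 3 reads in WT against 104, 120 and 157 in prmt5. The 12 bases on its 5′ side had 12, 3 and 10 reads in WT against 67, 76 and 93 in prmt5. The junction that leaves the bin had 30, 6 and 21 reads in WT against 16, 24 and 27 in prmt5, or 0.223 ± 0.0730% and 0.279 ± 0.0776% of the gene. Both flanks therefore rose with the bin, and whether its reads came from a new start or from the kept intron was not tested.

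A further 3 named 5′ bins had the same form. FUM2 (AT5G50950), a fumarase, had 27, 22 and 25 reads in WT against 142, 112 and 185 in prmt5 over a bin of 24 bases (log2 difference 2.71, SE 0.21; edgeR adjusted p = 0.00081), with no difference past the threshold for the gene (137 and 136 CPM). AT4G30310, a carbohydrate kinase of the FGGY family, had 63, 33 and 60 against 178, 118 and 182 (log2 difference 1.53, SE 0.14; edgeR adjusted p = 0.0023). HOL1 (AT2G43910), a methyltransferase that makes methyl halides, had 28, 17 and 18 against 153, 128 and 132 (log2 difference 2.57, SE 0.26; edgeR adjusted p = 0.0049), and the intron row beside it also rose, from 214, 138 and 244 counts to 559, 486 and 624. None of these groups overlapped. The other spliced-over 5′ bins that rose included the RNA helicase UAP56a (0.80), the tonoplast sugar transporter TMT2 (1.65), the cysteine synthase CYSD2 (1.57) and the F-box protein SKIP5 (1.16), all as log2 differences in usage. These 4 were named after their values had been seen. The bin of SKIP5 has its midpoint at 47.6% of the gene length and holds 3′ UTR and coding sequence by RefSeq, so its 5′ label rests on the midpoint rule alone.

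**Figure D3:**
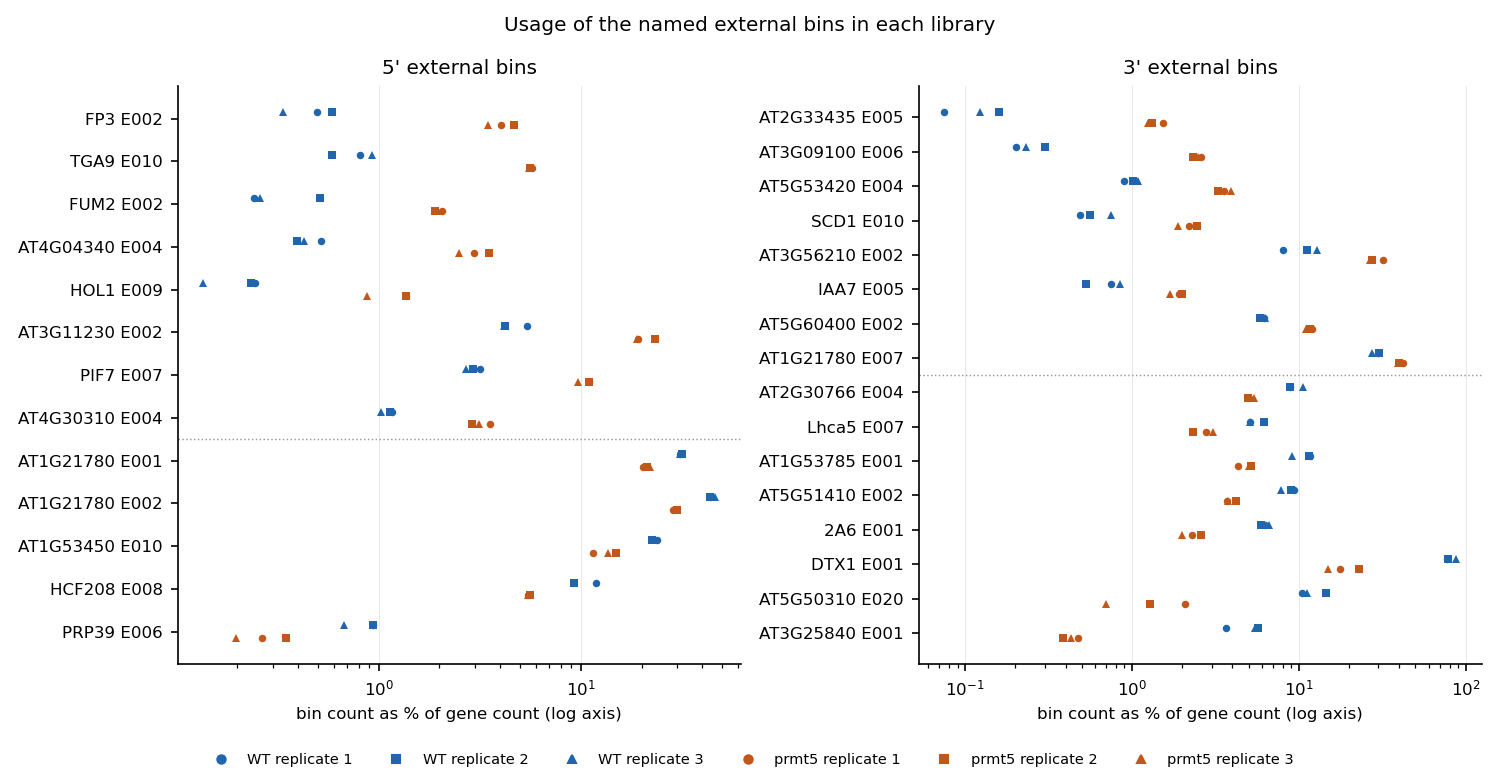
Usage of the 29 named external bins, as a percentage of the gene's count on a log axis, in each of the 6 libraries; each point is 1 library, and bins are grouped by end and direction. In every bin the WT and prmt5 points do not overlap; FP3 goes from 0.474% to 4.05% and AT3G25840:E001 from 4.94% to 0.431% (means).

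Intron reads that did not count in the bin were examined for each raised spliced-over bin whose intron had a row of its own. They took a higher share of gene counts in all prmt5 libraries than in any WT library for 13 of 15 such 5′ bins and for 2 of 5 such 3′ bins. The 5′ bins that did not separate, of AT3G11230 and CYSD2, left 2 intron bases outside each. The 3′ bins that did not, of IAA7, AT5G53420 and AT5G60400, left 8, 21 and 33, so these had little room for such reads. AT1G22930 separated with 22 bases. Of all 53291 tested introns, each counted whole, 30.9% separated in this direction, which is not a like measure. Since an intron row and the bin inside it count the same reads, the bins' calls and the introns' calls are not independent. By edgeR, 11533 of all tested introns rose (21.6%) and 276 fell (0.518%), with a median log2 difference of 0.37. Of introns that hold a 5′ external bin 126 of 772 rose (16.3%; median 0.18), and of those that hold a 3′ external bin 65 of 460 (14.1%; median 0.097). These shares were not tested against the background.

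**Figure D4:**
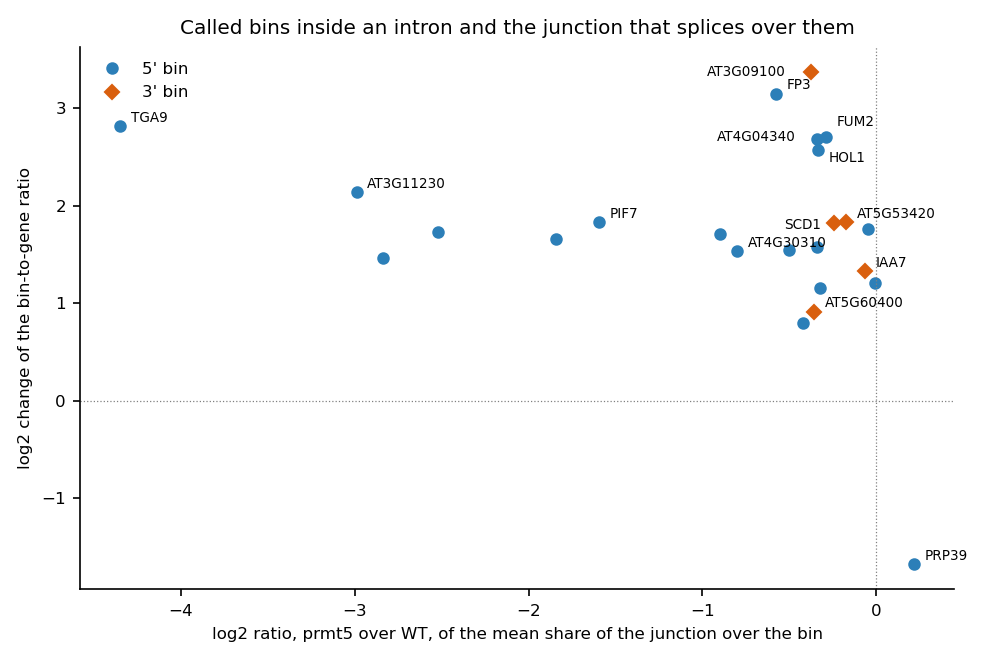
Log2 difference in usage of each called spliced-over external bin (y axis, prmt5 minus WT, fitted by edgeR) against the log2 ratio of the mean share of gene counts of the junction that passes over it (x axis, prmt5 over WT). The bins that rose lie above 0 on the y axis and their junctions lie at or left of 0 on the x axis; PRP39, which fell from 0.853% to 0.271%, lies below and to the right.

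Introns that hold no external bin but touch one were counted in the same way. Next to a 5′ external bin 2268 of 8938 rose (25.4%; median log2 difference 0.41), and next to a 3′ external bin 1510 of 9910 rose (15.2%; median 0.29). The background for all introns, 21.6%, lies between them. Introns beside 5′ bins were also longer (median 204 bases, for introns beside a 5′ bin only) than those beside 3′ bins only (100 bases), and the part of length in this difference was not tested.

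At the 5′ end 5 bins in 4 genes fell. PRP39 (AT1G04080), a homologue of a yeast U1 snRNP protein, was the sole spliced-over bin among them: its bin of 62 bases at chr1:1053126-1053187 had 71, 41 and 55 reads in WT against 24, 24 and 22 in prmt5 (0.853 ± 0.152% and 0.271 ± 0.0755%; log2 difference −1.68, SE 0.25; edgeR adjusted p = 0.038). The junction that leaves this bin had 42, 31 and 37 reads in WT against 12, 9 and 9 in prmt5, or 15.2 ± 3.67% and 3.14 ± 1.01% of the junctions that share its acceptor (edgeR adjusted p = 9.7e-07). The gene itself rose from 112 to 165 CPM. Bin and junction of this alternative first exon thus fell together while the gene rose. Reads of the junction can also count in the bin, so the 2 values are not independent.

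The first exon of AT1G53450 fell from 22.9 ± 0.735% to 13.4 ± 1.77% of the gene (log2 difference −0.79), and that of HCF208 (AT5G52110), a plastid protein needed for cytochrome b6 assembly, from 10.1 ± 1.48% to 5.53 ± 0.0471% (log2 difference −0.88). Both genes rose as a whole. With the bins that are not external as the reference the log2 differences were −0.022 for AT1G53450 and −0.081 for HCF208, past no threshold. In AT1G21780 both 5′ bins fell, E001 from 31.1% to 21.2% and E002 from 44.4% to 29.6%. These 2 bins overlap the neighbouring gene AT1G21770, which itself fell from 45.2 ± 3.44 to 26.2 ± 0.229 CPM; the sources seen here do not say whether strand was used in counting, so reads of the overlap may come from either gene. A junction within E001 that the deposited table names after AT1G21770, and that matches the intron of that gene in RefSeq, had 764, 464 and 861 reads in WT against 52, 40 and 76 in prmt5. The 3′ bin of AT1G21780 was called raised (29.2% to 40.4%, log2 difference 0.47), but took a log2 difference of −0.051 when the bins that are not external served as the reference.

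At the 3′ end 14 bins of 12 genes fell, with log2 differences of −0.31 to −3.49. Of these 14, 10 were the outermost bin of the gene, 0 were spliced over, and 5 overlap another gene. The call with the smallest adjusted p was the last exon of AT3G25840, a gene annotated as a protein kinase superfamily member, at chr3:9451861-9452032 (minus strand, 172 bases of 3′ UTR). It had 194, 165 and 309 reads in WT against 24, 16 and 31 in prmt5. Usage went from 4.94 ± 1.11% to 0.431 ± 0.0443%, a log2 difference of −3.49 (SE 0.22; edgeR adjusted p = 0.00030), while the gene as a whole rose from 77.3 to 99.3 CPM.

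The exons upstream of that end fell with it. The junction into the last exon had 92, 83 and 131 reads in WT against 11, 7 and 17 in prmt5, and the junction from the exon E005 to E003, which opens the distal route, had 177, 115 and 183 in WT and 17, 11 and 23 in prmt5. The internal exons E002 and E003 fell by 3.23 and 3.29 on the log2 scale. The other 3′ external bin of the gene, E004, which continues exon E005 into the intron and ends the transcript there, had 73, 54 and 64 reads in WT against 196, 128 and 184 in prmt5. Its usage was 1.46 ± 0.369% and 3.18 ± 0.669%, groups that did not overlap, but it missed the threshold (log2 difference 1.17, SE 0.20; edgeR adjusted p = 0.098). Exon E016 near the 5′ end also fell, by 3.64 on the log2 scale, from 29, 14 and 35 counts to 1, 2 and 4. The last 30 bases of the 2 alternative ends show where each transcript stops, given 5′ to 3′ on the transcribed strand.
AT3G25840:E001, distal end, chr3:9451861-9451890: ggagtcaaggttagaaaggatttgcgttgc
AT3G25840:E004, proximal end, chr3:9452663-9452692: tcttaataagcagagggtcattctgaataa
Neither holds AATAAA, the letters searched for on the transcribed strand only; they occurred in the last 30 bases of 7.70% of 17709 outermost 3′ bins and in 0 of the 12 called ones. Each stretch of 50 bases in E001, E003 and E004 occurs again 8263 bases away on the same strand (that of E001 at chr3:9443598-9443769, where the deposited table has no gene). How reads with more than 1 match were counted is not given in the sources used here, so these values are uncertain.

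**Figure D5:**
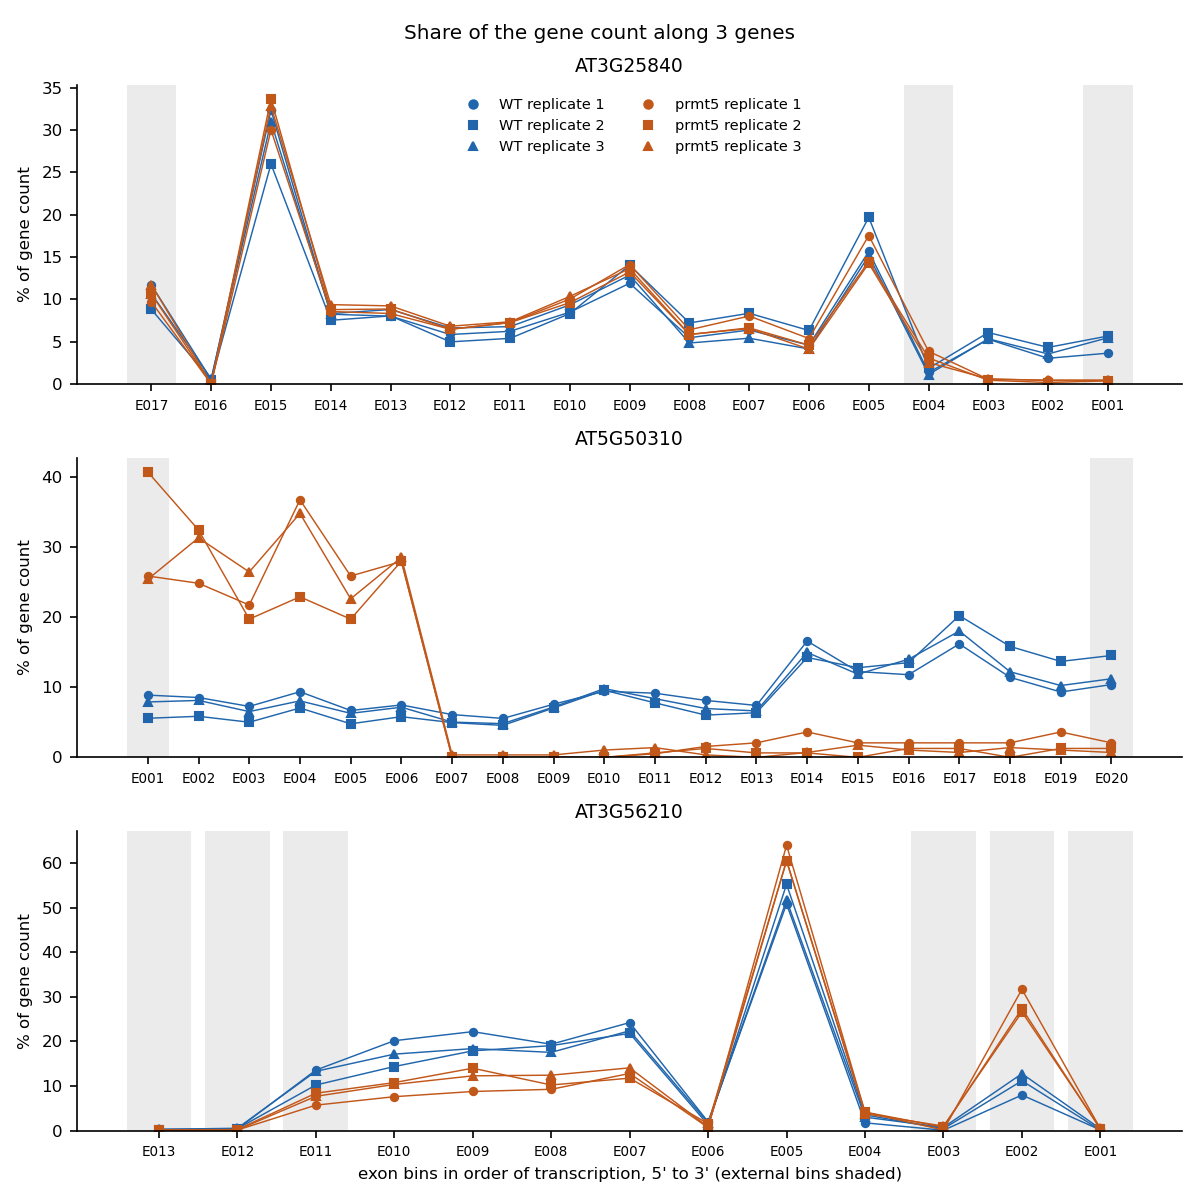
Usage (bin count as a percentage of the gene count) of each exon bin along AT3G25840, AT5G50310 and AT3G56210, in order of transcription from 5′ to 3′; each line is 1 library and external bins are shaded. The WT and prmt5 lines part at E003 to E001 of AT3G25840 and at E002 of AT3G56210, where prmt5 lies at 26.6% to 31.7% and WT at 7.98% to 12.8%. In AT5G50310 the prmt5 lines lie above WT from the first bin and cross it at E007, where prmt5 is at 0 in 2 libraries and 0.348% in the third.

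In AT5G50310, a gene with kelch repeats, the loss at the 3′ end came with a gain in usage at the 5′ end and with a fall of the whole gene from 44.4 to 3.84 CPM (log2 difference −3.52; edgeR adjusted p = 1.1e-09). The last bin had 303, 258 and 359 reads in WT against 4, 2 and 2 in prmt5, a change in usage from 12.1 ± 2.20% to 1.35 ± 0.691%. The first bin had 259, 99 and 253 reads in WT against 50, 64 and 73 in prmt5, and its usage went from 7.46 ± 1.70% to 30.7 ± 8.72%. Counts broke off between the sixth bin (218, 103 and 229 in WT; 54, 44 and 82 in prmt5) and the seventh (178, 88 and 161 in WT; 0, 0 and 1 in prmt5). Each of the first 6 bins had 31 to 100 reads in every prmt5 library, and each of the other 14 had 0 to 7.

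CA1 (AT3G01500), a carbonic anhydrase of the chloroplast, was the most abundant of the 45 genes with a called external bin, at 4577 CPM in WT and 4849 in prmt5, and was named after its values had been seen. Its outermost 3′ bin had 3340, 3166 and 5204 reads in WT against 2012, 1437 and 1885 in prmt5, and fell from 1.47 ± 0.290% to 0.685 ± 0.111% of the gene (log2 difference −1.10, SE 0.14; edgeR adjusted p = 0.019). The adjoining 3′ bin of 6 bases shares its reads and fell likewise (−1.08), and the junction into it fell from 2520, 2420 and 4055 counts to 1365, 975 and 1305. The outermost 5′ bin of CA1, 45 bases long, rose from 213, 127 and 290 counts to 320, 324 and 414, or 0.0760 ± 0.00609% to 0.135 ± 0.00776% (log2 difference 0.82, SE 0.10; edgeR adjusted p = 0.0092).

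AT5G51410, which encodes a protein with a LUC7 domain, lost reads over its long 3′ UTR. Bin E002 had 205, 119 and 174 reads in WT against 70, 64 and 92 in prmt5 (8.74 ± 0.782% and 3.88 ± 0.275%; log2 difference −1.18), and the adjoining E003 fell by 1.39 on the log2 scale. The outermost bin E001 went from 4.20% to 2.12% but missed the threshold (log2 difference −0.99; edgeR adjusted p = 0.20). AT2G30766 fell from 9.41% to 5.13% at its last bin of 38 bases, and 2A6 (AT1G03410) from 6.26% to 2.29%. With the bins that are not external as the reference, the log2 difference of 2A6 went from −1.48 to −0.13 and was no longer called.

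A further 5 of the lowered 3′ bins overlap another gene. The last bin of Lhca5 (AT1G45474), a light-harvesting protein of photosystem I, had 509, 367 and 604 reads in WT against 161, 105 and 218 in prmt5 (5.46% to 2.72%), while the overlapping AT1G45545 fell from 11.2 to 4.28 CPM. The Lhca5 junction into this bin had 484, 337 and 552 reads in WT against 148, 91 and 196 in prmt5, so that most reads of the bin matched a junction of Lhca5 itself. In AT1G53785 the last bin fell from 10.8% to 4.82%, and the junction into it had 92, 41 and 75 reads in WT against 31, 21 and 39 in prmt5, or 48.9 ± 5.96% and 22.9 ± 2.46% of its cluster. RefSeq gave this bin no annotation for its gene. The bin overlaps AT1G53780 on the same strand, which rose from 64.0 to 78.0 CPM. A junction of AT1G53780 from the same donor rose from 51.1 ± 5.96% to 77.1 ± 2.46% of that cluster. What part of the bin's reads came from AT1G53780 was not tested. DTX1 (AT2G04040), a MATE efflux carrier, rose from 2.14 to 14.2 CPM. Its last bin, which overlaps AT2G04039 (95.6 and 85.6 CPM), had 108, 77 and 116 reads in WT against 205, 96 and 111 in prmt5 and so fell from 81.4% to 18.4% of the gene, while its first bin had 2, 1 and 2 reads in WT against 165, 63 and 133 in prmt5. The DTX1 junction into its last bin had 3, 3 and 0 reads in WT against 78, 14 and 31 in prmt5, or 1.74 ± 1.57% and 4.72 ± 1.74% of the gene. At DTX1 the counts of the last bin thus did not go down while its usage fell, and its own junction into that bin rose. What part of the bin's reads came from AT2G04039 was not tested. BGLU6 (AT1G60270), of the beta-glucosidase family and named after its values had been seen, fell at its last bin with no gene overlapping it, from 28.8 ± 1.15% to 19.2 ± 1.39% (log2 difference −0.58; edgeR adjusted p = 0.038).

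At the 3′ end 8 bins rose, 5 of them spliced over. AT3G09100, of the mRNA capping enzyme family, had the second largest log2 difference: its bin of 273 bases at chr3:2789801-2790073 (minus strand) had 7, 6 and 9 reads in WT against 97, 72 and 118 in prmt5, or 0.245 ± 0.0519% and 2.47 ± 0.140% of the gene (log2 difference 3.37, SE 0.22; edgeR adjusted p = 0.00030). The 232 intron bases outside the bin also went from 3, 3 and 4 counts to 47, 41 and 54. AT5G53420, a CCT motif protein, had 17, 15 and 27 reads in WT against 73, 53 and 79 in prmt5 (log2 difference 1.83), and SCD1 (AT1G49040), which acts in cytokinesis of guard cells, had 21, 13 and 34 in WT and 83, 73 and 96 in prmt5 (1.82). IAA7 (AT3G23050), an Aux/IAA repressor of auxin responses, had 65, 22 and 66 in WT and 102, 84 and 124 in prmt5 (1.33), and AT5G60400 went from 6.09% to 11.5% (0.91). None of the groups overlapped in usage. The bin of AT5G60400 has its midpoint at 54.2% of the gene length, and RefSeq places it in 5′ UTR and intron. Its 3′ label comes from the midpoint rule and goes against that annotation.

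A further 3 of the raised 3′ bins were not spliced over. In AT3G56210, an ARM repeat protein, the bin E002 went from 110, 105 and 195 counts to 517, 356 and 550 (10.6 ± 2.44% to 28.6 ± 2.75%; log2 difference 1.42), and the junctions into it from 68, 52 and 101 to 298, 204 and 320. Of the stretches of 50 bases in this bin, 69.9% occur elsewhere in the genome. AT2G33435 had 1, 1 and 2 reads in WT against 26, 20 and 32 in prmt5 over 33 bases that RefSeq places in an intron. The intron row beside it rose from 8, 4 and 18 counts to 82, 73 and 106 (0.782 ± 0.282% to 4.59 ± 0.407% of the gene; edgeR adjusted p = 4.0e-09). The third was the bin of AT1G21780 described above.

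Joining of external bins was measured by junctions that share a donor or an acceptor, as the share of each junction within its cluster. Of 8063 junctions tested by edgeR, 473 changed (5.87%). Of junctions leaving a 5′ external bin 83 of 2059 changed (4.03%; 46 rose and 37 fell, in 77 genes), and of those entering a 3′ external bin 50 of 839 (5.96%; 20 rose and 30 fell, in 42 genes). Junctions with neither had 351 of 5336 (6.58%). In all, 108 genes had a called junction of an external bin, and 3 of these also had a called external bin. Clusters that join more than 1 external bin of an end, which bear most directly on a choice between starts or ends, were few: 78 at the 5′ end with 6 called of 175 junctions, and 7 at the 3′ end with 0 called of 15 by edgeR (1 at an unadjusted p under 0.05).

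The junctions of external bins that follow were named after their values had been seen. In the first 3 genes an annotated junction fell to few or no reads in prmt5. Its share of the cluster in WT differed widely between these genes. In AT1G34750 the annotated junction from the first exon (chr1:12737772-12737870, minus strand) had 62, 36 and 84 reads in WT against 0, 0 and 0 in prmt5, and an unannotated junction to the same acceptor from a donor within that exon (chr1:12737772-12737930) had 0, 0 and 0 in WT and 19, 24 and 23 in prmt5. A count of 0 allows a share of up to 4.55% for the annotated junction in prmt5 and of up to 1.65% for the unannotated one in WT, by counting error only. ARFA1D (AT1G70490), a small GTPase of vesicle traffic, had 83, 34 and 64 counts at a junction from its first exon in WT and 1, 1 and 6 in prmt5 (4.35 ± 0.604% and 0.207 ± 0.185% of the cluster; edgeR adjusted p = 7.8e-12). The 3′ end junction of SKL1 (AT3G26900) had 49, 22 and 42 reads in WT against 1, 0 and 0 in prmt5, or 29.4 ± 3.22% and 0.439 ± 0.760% of the cluster. No external bin passed the test in these 3 genes.

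The first exon of SR34a (AT3G49430), a splicing factor of the SR family, kept its donor and changed acceptor. The junction to the nearer acceptor had 79, 27 and 81 reads in WT against 263, 191 and 319 in prmt5, and rose from 16.6 ± 2.94% to 47.6 ± 2.19% of the cluster. In MAF1 (AT1G77080), a MADS-box repressor of flowering, a junction from the first exon had 45, 17 and 57 reads in WT against 1, 4 and 6 in prmt5, and fell from 14.3 ± 4.20% to 1.30 ± 0.812%.

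Genes whose alternative ends are described in the plant literature were listed to ask whether they changed. The list held 7 genes with 30 external bins, 25 of them tested in 6 genes (FCA, FPA, CPSF30, IBM1, GLYK and THIC). By edgeR 0 were called and 3 had an unadjusted p under 0.05; DESeq2, diffSpliceDGE and limma-voom also called 0. Of these 3, the intronic bin of IBM1, a histone demethylase gene with a long intron, had 28, 4 and 24 reads in WT against 34, 17 and 39 in prmt5, or 1.07 ± 0.597% and 2.15 ± 0.491% of the gene (log2 difference 0.91). The intronic 3′ bin of THIC, whose 3′ end is set by a riboswitch, had 224, 156 and 264 reads in WT against 437, 332 and 418 in prmt5, or 1.24 ± 0.173% and 1.60 ± 0.297% of the gene. The 5′ bin E008 of CPSF30 had 15.3 ± 2.89% of the gene in WT and 19.4 ± 2.25% in prmt5.

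Factors that choose the ends were compared at the level of the gene. Of 25 listed genes for cleavage and polyadenylation 24 were tested, of which 8 rose and 4 fell, beside 17.9% raised and 15.4% lowered over all genes, with a median log2 difference of 0.088 against 0.0063 for all genes. CPSF160, the large subunit of the cleavage and polyadenylation specificity factor, rose from 45.2 ± 3.43 to 81.1 ± 3.38 CPM (edgeR adjusted p = 1.1e-05), and CPSF73-II, a nuclease-like subunit, from 1.83 to 5.49 CPM. FIP1[V] rose by a log2 difference of 0.48, and the RNA-binding proteins AT5G10350 and AT5G65260 rose by 0.68 and 0.43. The 4 genes that fell were PAPS2, a poly(A) polymerase (log2 difference −0.30), AT5G60940 (−0.38), FPA (−0.21) and CPSF30 (−0.19).

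Of 13 listed genes for start site recognition all were tested, of which 8 rose and 1 fell, beside the same 17.9% and 15.4% over all genes, with a median log2 difference of 0.33. The TFIID subunits HAF01, TAF5, TAFII15 and TAFII59 rose by log2 differences of 0.70, 0.57, 0.42 and 0.33, and TAF4B rose from 1.35 to 2.97 CPM. The TATA-binding protein TBP2 fell from 24.6 ± 1.35 to 20.5 ± 1.17 CPM. The external bins of these 2 lists, 69 and 27 tested, gave 0 calls by edgeR, with 9 and 2 at an unadjusted p under 0.05, and 1 and 0 calls by DESeq2.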

How the data were processed

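The authors deposited whole-number counts of reads per gene, exon bin, intron and junction for 6 libraries; per the submitters' processing notes STAR and TAIR10 were used, with no versions. Per the labels' protocols, libraries were made from 3 µg of total RNA with poly(A) selection and 12 PCR cycles. Not given in the sources used here were the counter, read length, strandedness and the counting of reads with several matches. Reads carry no molecular identifiers. Cold-grown plants were not analysed here.

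From these counts, bins averaging 5 or more counts, in genes that averaged 50 or more and held 2 or more such bins, were tested with edgeR 4.0.16 (quasi-likelihood, robust, 2-sided; R 4.3.3), with log(gene count + 0.5) as offset, so that a coefficient is the log2 difference of the bin-to-gene ratio. P-values were adjusted by Benjamini-Hochberg over all exon bins tested, and calls needed an adjusted p under 0.05. Introns were tested likewise, junctions by diffSpliceDGE within clusters sharing a donor or acceptor, and genes on TMM-scaled counts. End shares per library were compared by exact permutation (scipy 1.17.1). Scripts were tested on simulated counts with changed features. Alternatives used DESeq2 1.42.0, limma 3.58.1, other offsets and minimums, and each replicate left out. Gene totals ran from 38564256 to 75461631, so bins with few counts carry wide counting error. Replicate numbers do not pair the samples (correlations of same-numbered deviations −0.247, −0.0979 and 0.0835).

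Named bins were, per end and direction, up to 8 called bins by smallest adjusted p, at most 2 of 1 gene, plus listed genes with known alternative ends (by counts) and up to 5 called factor genes per list and direction; those named beyond the rule are marked in the text. The members and lists were chosen with earlier results of these data known. Gene names and annotation came from RefSeq (TAIR10.1).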

Additional observations from a re-analysis of the deposited data

How the results depend on the processing

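The number of called 5′ external bins was 30, and 50 with DESeq2, 52 with diffSpliceDGE within genes, 53 after the median of each end was removed, 46 against the gene count without the bin, 8 with the replicate number as a block (the numbers do not pair the samples) and 9 for outermost bins only; without 1 replicate it ran from 8 to 42. For 3′ external bins it was 22 (8 raised and 14 lowered), and 56 with DESeq2 (22 and 34), 50 with diffSpliceDGE (26 and 24), 65 after the median was removed (36 and 29), 62 against the gene count without the bin (15 and 47), 3 with the block, 12 for outermost bins only and 14 (7 and 7) without genes marked as overlapping; without 1 replicate it ran from 3 to 39. Among the 29 named bins, 10 passed the threshold in all 15 alternative fits (FP3, AT4G04340, AT3G11230, TGA9, PIF7, FUM2, AT4G30310, AT3G09100, AT3G25840 and DTX1) and 19 missed it in at least 1. None of these fits left out overlapping genes or repeated sequence, which bear on DTX1 and AT3G25840. Of 431 pairs of bin and alternative, 325 kept the call, 105 lost it with the same direction, and 1 reversed (AT1G21780:E007, −0.051 against the bins that are not external). The block lost 18 of the 29, and so did the fits without prmt5 replicate 2 and without prmt5 replicate 3. Those without WT replicate 3 and without prmt5 replicate 1 lost 16 each. Without WT replicate 1 the loss was 9, and without WT replicate 2 it was 1.

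The difference between genotypes in the 5′ share, −0.746 percentage points, reversed as a median over genes (0.013 on the log2 scale) and ran from −1.65 to 0.0041 without 1 replicate, reversing without WT replicate 1. For the 3′ share the range was −2.56 to −0.215, and for the 5′ to 3′ ratio −0.0452 to 0.0461, which reversed without WT replicate 2 (−0.0452), prmt5 replicate 2 (−0.00437) or prmt5 replicate 3 (−0.0170).

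Raised introns next to a 5′ external bin, with those that also hold one, numbered 2358, and 1546 at a mean of at least 20 counts, 1328 (with 399 lowered) after the median change was removed, and 1869 to 2337 without 1 replicate; next to a 3′ external bin they numbered 1550, and 939 with DESeq2, 1032 at 20 counts, 650 (with 634 lowered) after the median was removed, and 1073 to 1691. Called junctions leaving a 5′ bin numbered 83, and 36 at 20 counts and 54 to 83 without 1 replicate; those entering a 3′ bin 50, and 25 and 30 to 47. Calls in the factor lists stayed within 9 to 11 and 7 to 9 without 1 replicate. The causes were not tested. Depth limits the short bins: 8 called bins were under 50 bases, 3 shared over 10% of their 50-base stretches with other places, and 17 lay in genes marked as overlapping.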
